A study of Mus musculus with 6 samples.

Results

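Fcrl5 and 8 further genes that distinguish B cell subsets were followed in the B cells of mouse pancreatic lymph nodes. The 9 genes, of 31053 in the deposited tables, were Fcrl5, Fcrl1, Fcrla, Fcer2a, Cr2, Fcgr2b, Cd9, Zbtb32 and Bhlhe41, found by symbol. They were selected with earlier results of these libraries known, the higher Fcrl5 level in B cells of one genotype among them. Genotype differences in the levels of the 9 genes over all B cells are therefore given as descriptions, without a test. B cells were cells with at least 1 unique molecular identifier (UMI, 1 per captured RNA molecule) of both Cd79a and Ms4a1 and no UMI of Cd3d, Cd3e or Cd3g, and there were 10429 among 51777 cells kept. When all cells were clustered by expression, 10168 of the 10429 fell in B cell clusters, and 217 of the other 261 in a cluster of cycling cells.

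Mature B cells of lymph nodes are mostly follicular B cells, which recirculate and carry much CD23, the low-affinity IgE receptor encoded by Fcer2a. Marginal zone and B1 cells, which make rapid antibody responses, and memory cells, which persist after an earlier response, carry less CD23 and other receptors in place of it. Fc receptor-like proteins are relatives of the Fc receptors that tune the signal of the B cell antigen receptor, and mouse Fcrl5 is known as a surface protein of marginal zone and B1 cells.

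The study asked how a gene acts within T cells in relation to autoimmunity. Pancreatic lymph nodes came from 6 mice, 3 in each group, and each of the 6 libraries is taken as 1 mouse. Cre-negative 1 to 3 carried the floxed gene without the CD4-Cre transgene, and Cre-positive 1 to 3 carried the floxed gene with it. CD4-Cre uses control sequences of Cd4 to drive the Cre recombinase, which removes floxed DNA, and Cd4 is transcribed in developing T cells and not in B cells. The labels give no strain, sex or age. The libraries held 47149014 to 61321105 UMIs in 8209 to 10936 barcodes, and after filtering the median depth per cell was 4239 to 5596 UMIs. Of 59260 distinct barcodes, 418 occurred in more than 1 library. B cells made up 16.7%, 18.6% and 18.0% of the cells of Cre-negative 1 to 3, and 25.3%, 15.3% and 26.1% of those of Cre-positive 1 to 3. The ranges overlapped (17.8% ± 0.999 against 22.2% ± 6.04, SD, n = 3 each, exact two-sided permutation p = 0.4, where 0.1 is the smallest that 3 against 3 allows). Libraries stood apart in a few RNAs. Hbb-bs, a haemoglobin chain of red cells, had 3102 CPM (UMIs of a gene per 1000000 UMIs) in the B cells of Cre-negative 1. Antibody genes and Jchain, which joins antibody units, were high in Cre-positive 1 and 2, with values given beside the result they touch.

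The 9 genes lie on 5 chromosomes in GRCm38 (mm10, GENCODE M21), and all are protein coding. Fcrl5 (ENSMUSG00000048031, chr3:87435773-87500678, plus strand) starts 32.8 kb after the end of Fcrl1 (chr3:87376387-87402934, plus strand). Fcrla (chr1:170917576-170927583) and Fcgr2b (chr1:170958617-170976547) also lie close to each other, 31.0 kb apart on the minus strand. Cr2 (chr1:195136811-195176716), Fcer2a (chr8:3681737-3694175), Cd9 (chr6:125460266-125494791), Zbtb32 (chr7:30589681-30598909) and Bhlhe41 (chr6:145858243-145865558) are all on the minus strand. Fcrl5 and its neighbour Fcrl1 are a pair in the genome but differ in the results below. Bhlhe41 had a higher summed level in B cells with an Fcrl5 UMI, with limits given below. For these 3 genes the bases just upstream are shown. They are RefSeq sequence of GRCm38.p6, 5′ to 3′ on the gene's strand, as chr3:87435532-87435772 for Fcrl5, chr3:87376137-87376386 for Fcrl1 and chr6:145865559-145865670 for Bhlhe41. Capitals mark matches to a motif on either strand, GAGGAA for Fcrl1 and CACGTG for Bhlhe41.
Fcrl5: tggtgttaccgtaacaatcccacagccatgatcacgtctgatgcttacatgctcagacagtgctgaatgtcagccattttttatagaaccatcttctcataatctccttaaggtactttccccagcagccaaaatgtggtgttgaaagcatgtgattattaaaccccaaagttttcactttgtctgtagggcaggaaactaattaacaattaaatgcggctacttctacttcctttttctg
Fcrl1: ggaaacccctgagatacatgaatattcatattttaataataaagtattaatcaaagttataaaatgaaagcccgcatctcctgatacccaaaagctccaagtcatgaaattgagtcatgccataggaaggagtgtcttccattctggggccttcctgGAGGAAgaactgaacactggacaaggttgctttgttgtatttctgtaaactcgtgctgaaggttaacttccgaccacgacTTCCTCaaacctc
Bhlhe41: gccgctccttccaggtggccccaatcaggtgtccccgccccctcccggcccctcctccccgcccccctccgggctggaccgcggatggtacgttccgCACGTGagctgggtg
The 250 bases upstream of each start site were searched for 5 motifs of factors active in B cells, on both strands. They were CACGTG, the E-box bound by factors of the Bhlhe41 type, the octamer ATTTGCAT, the EBF1 core CCCNNGGG, the PU.1 core GAGGAA and the aryl hydrocarbon receptor core GCGTG. Of 32851 such windows of the genome, 6.02% held CACGTG, 1.60% ATTTGCAT, 11.8% CCCNNGGG, 23.3% GAGGAA and 28.2% GCGTG. Fcrl1 held GAGGAA 93 and 13 bases before its start, Bhlhe41 held CACGTG 153 bases before its start, and the window of Fcrl5 held none of the 5. Bhlhe41 also held GCGTG 119 and 66 bases before that start, in a stretch inside the annotated gene that is not printed. Fcrla held GAGGAA 37 bases before its start, and Zbtb32 held GCGTG 172 bases before a start. A match describes letters only, and its absence says only that these letters are not in this window.

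Fcrl5 RNA was found in a minority of B cells, and its level was higher in the Cre-positive mice. Of the 10429 B cells, 687 held an Fcrl5 UMI, 538 of them exactly 1 and 149 at least 2. Its level over all B cells of a mouse was 13.5, 13.6 and 13.8 CPM in Cre-negative 1 to 3 and 20.7, 20.9 and 21.05 CPM in Cre-positive 1 to 3. The groups did not overlap (13.6 ± 0.164 and 20.9 ± 0.167 CPM, SD, n = 3), on 91, 100 and 101 against 227, 151 and 246 UMIs. This is a ratio of 1.53, a log2 fold change of 0.62 (SE 0.115). Counting error at these UMI numbers is larger than those SDs, so the closeness of mice within a group is no measure of precision. The share of B cells with an Fcrl5 UMI was 6.58%, 5.29% and 5.33% in Cre-negative against 6.79%, 7.25% and 7.69% in Cre-positive mice. Cre-negative 1, whose B cells had the highest median depth (5210 UMIs against 3905 to 4676 in the other mice), came near the Cre-positive values. With each cell thinned to 2000 UMIs the shares were 2.06%, 2.23% and 2.17% against 3.08%, 2.84% and 3.41%. T cells were set beside the B cells as background. They were cells with a UMI of Cd3d, Cd3e or Cd3g and none of Cd79a, Cd79b and Ms4a1. This rule leaves out T cells that held free RNA of those B cell genes, so it can understate the background of free RNA. Among 33011 such T cells 25 held an Fcrl5 UMI (0.0757%), at a median of 5049 UMIs, against 6.59% of B cells at a median of 4406 UMIs. After thinning the share in T cells was 0.0340%.

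**Figure D1:**
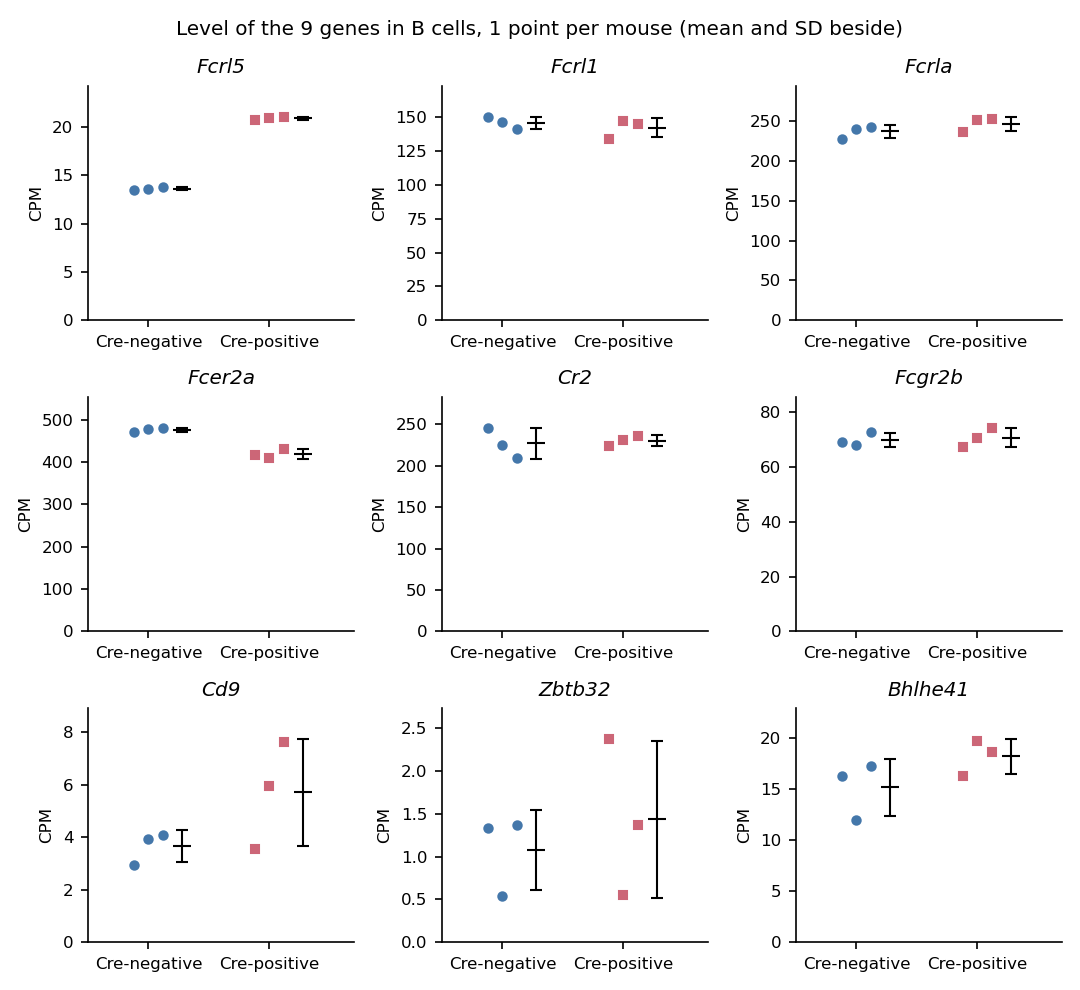
Level of each of the 9 genes in B cells in CPM, 1 point per mouse, with the mean and SD of the 3 mice of each genotype beside the points and axes from 0. Fcrl5 was 13.5 to 13.8 CPM in Cre-negative against 20.7 to 21.05 CPM in Cre-positive mice, Fcer2a also separated the groups, and the other 7 genes overlapped.

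Most of the genotype difference in Fcrl5 lay in a small cluster of B cells. The B cells were clustered without the 9 genes, which gave 11 clusters of over 50 cells. A cluster of 306 cells held 7 of 11 B1 and memory markers among its 50 leading genes (Ahnak, S100a6, Zbtb20, Cd80, Lgals1, Itgb1 and Atxn1) and is called B1- or memory-like. The same 50 also held the marginal zone markers S1pr3 and Plac8 and the plasma cell markers Jchain and Derl3. Its first genes were Igha, Ighg2b, Ighg1, Iglv1 and Jchain, so the name is provisional. Its share was 1.84%, 2.08% and 2.08% of B cells for Cre-negative 1 to 3 and 3.64%, 3.45% and 3.56% for Cre-positive 1 to 3. The groups did not overlap (2.00% ± 0.137 against 3.55% ± 0.0970, exact two-sided permutation p = 0.1, the smallest possible, and 0.55 after Benjamini-Hochberg adjustment over the 11 clusters). The nuclear-RNA-led cluster also did not overlap, with 1.88% in Cre-negative against 0.744% in Cre-positive mice (exact p = 0.1, adjusted 0.55). Within the B1- or memory-like cluster Fcrl5 was at 85.2, 72.0 and 52.3 CPM in Cre-negative mice against 129, 127 and 117 CPM in Cre-positive mice. These levels rest on 15, 18 and 13 against 95, 66 and 90 UMIs. Outside it Fcrl5 was at 12.1, 11.3 and 12.3 against 12.9, 12.8 and 13.9 CPM, groups that also did not overlap, by a smaller margin. The cluster held 15.8% ± 2.63 of all Fcrl5 UMIs of B cells in Cre-negative against 40.7% ± 3.69 in Cre-positive mice. The log2 fold change of Fcrl5 between genotypes was 0.93 within the cluster and 0.17 without it, in fits added after seeing the data.

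**Figure D2:**
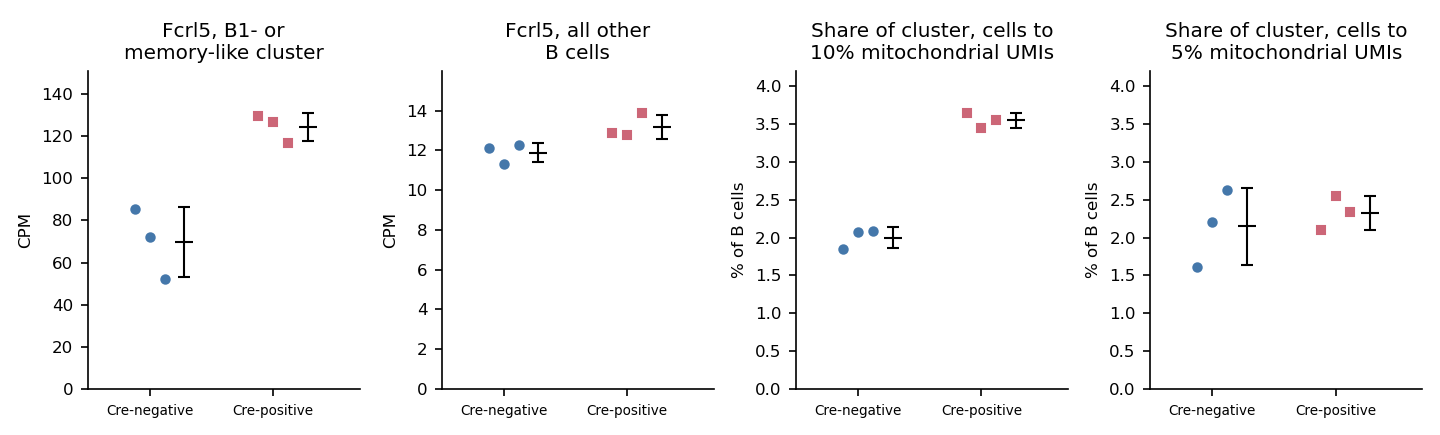
Fcrl5 in CPM inside and outside the B1- or memory-like cluster, and the share of B cells in that cluster with cells of up to 10% and up to 5% mitochondrial UMIs, 1 point per mouse with mean and SD beside. Inside the cluster Fcrl5 was 52.3 to 85.2 against 117 to 129 CPM, and the share separated the genotypes at 10% (1.84% to 2.08% against 3.45% to 3.64%) and overlapped at 5%.

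Antibody RNA within this cluster differed between mice, and the cluster's share changed with a limit on mitochondrial RNA. In it Igha was at 10742 CPM and Jchain at 12222 CPM in Cre-positive 2, and Ighg1 at 3936 CPM in Cre-positive 1. The places of these 3 among its leading genes rest largely on those mice. Atxn1, another leading gene, lay between 60.3 and 89.9 CPM over the mice. Cre-positive 3, with 135 CPM of Igha and 51.8 CPM of Jchain in the cluster, had a share of 3.56%. B cells had a median of 4.81% to 5.79% mitochondrial UMIs per mouse, and a limit of 5% kept 3553 of the 10429. The groups then overlapped, with cluster shares of 1.62%, 2.20% and 2.63% against 2.10%, 2.55% and 2.34% (exact p = 0.7), and the Fcrl5 log2 fold change was 0.24. Of the cluster's cells that limit kept 38.1%, 32.3% and 32.4% in Cre-negative 1 to 3 and 18.2%, 42.0% and 17.1% in Cre-positive 1 to 3, so the groups overlapped. The part of mitochondrial RNA in the difference was not tested.

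Among the other receptors, Fcer2a was lower in every Cre-positive mouse, and the groups overlapped for the other 4. Fcer2a stood at 472, 477 and 481 CPM in Cre-negative mice against 415, 410 and 432 CPM in Cre-positive mice. The groups did not overlap (476 ± 4.67 against 419 ± 11.4 CPM, log2 fold change -0.19, SE 0.073). Fcrl1, an activating Fc receptor-like protein of B cells, lay between 134 and 150 CPM in all 6 mice. Fcrla, which binds antibody inside the cell, lay between 228 and 252 CPM. Cr2, a complement receptor of B cells, was at 246, 225 and 210 CPM in Cre-negative mice against 224, 232 and 236 CPM in Cre-positive mice. Fcgr2b, the inhibitory IgG receptor, lay between 67.3 and 74.3 CPM. For these 4 genes the groups overlapped and the log2 fold changes lay between -0.04 and 0.06.

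The remaining 3 genes mark B1, memory or marginal zone cells and were low, with overlapping groups. Cd9, a tetraspanin of the cell membrane, was at 2.96, 3.94 and 4.10 CPM in Cre-negative against 3.56, 5.96 and 7.61 CPM in Cre-positive mice (log2 fold change 0.63, SE 0.263), on 250 UMIs in all. Bhlhe41, a repressor needed by B1 cells, was at 16.3, 11.97 and 17.2 against 16.2, 19.7 and 18.6 CPM. Zbtb32, a zinc finger repressor of activated lymphocytes, had 69 UMIs in all, and its values of 0.544 to 2.37 CPM allow no reading. So 2 of the 9 genes had groups that did not overlap, as had 1078 of all 10435 genes tested (10.3%). Of all 10435 genes tested by edgeR's quasi-likelihood test with Benjamini-Hochberg adjustment, 0 were called (0%), 468 had an unadjusted p under 0.05, and DESeq2 called 4 (Hspe1, Mbnl1, Gm26870 and Hsp90ab1). Nothing is read from the members' values against these counts, since the genes were chosen on that contrast.

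Lists of related genes gave no called gene in the genotype contrast, where the median log2 fold change of all genes tested was -0.0017. Of 10 marginal zone genes 9 were higher in Cre-positive mice (median 0.20), with Cd36, a scavenger receptor, at 0.45, Mzb1, an endoplasmic reticulum chaperone, at 0.32 and Plac8 at 0.25. Of 11 follicular genes 10 were lower (median -0.11), with Cd55, a complement regulator, at -0.18. Of 15 B1 and memory genes 6 were higher and 9 lower (median -0.03), with Lgals1, which encodes galectin-1, at 0.49 and Atxn1 at 0.45. The 20 genes of antigen receptor signalling had a median of 0.01. Of 8 plasma cell genes 6 were higher (median 0.30), but Jchain was 917 CPM in Cre-positive 2 and 258 CPM in Cre-positive 1 against 36.5 ± 7.11 CPM in Cre-negative mice. Of 19 dissociation and RNA quality genes, most of them mitochondrial, 17 were lower in Cre-positive mice (median -0.04), with summed levels that overlapped (79474 to 86721 against 76494 to 87222 CPM). Their part in the other lists' values was not tested. The summed levels of markers of other cells also overlapped between groups in the B cells. Their summed level was 75.3 to 89.9 against 67.6 to 88.1 CPM for T cell markers, 470 to 524 against 477 to 537 CPM for myeloid markers, and 122 to 133 against 121 to 132 CPM for follicular dendritic and stromal markers, of which 5 of 10 had 0 UMIs.

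B cells with an Fcrl5 UMI carried more Cd9 and Bhlhe41 RNA and less Fcer2a RNA than other B cells of the same mouse. Counts were summed over both kinds of B cell in each mouse, and the 12 sums were fitted with the mouse as a block and Fcrl5 left out. Of 9470 genes, 867 passed (9.16%), 465 higher and 402 lower in cells with Fcrl5. Of the 7 members tested 5 passed, though the members were proposed with results of these cells in view, so this count is no independent evidence. Cells with Fcrl5 were deeper, with a median of 6051 against 4329 UMIs, and the sums were scaled to their totals.

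Cd9 was at 16.0, 9.22, 20.9, 7.40, 21.7 and 33.0 CPM in cells with Fcrl5 of Cre-negative 1 to 3 and Cre-positive 1 to 3. In the other B cells it was at 1.81, 3.53, 2.82, 3.11, 4.19 and 3.95 CPM. The lowest value with Fcrl5 was above the highest without it (log2 fold change 2.42, SE 0.276, edgeR adjusted p = 4.18e-09, higher in 6 of 6 mice). Bhlhe41 was at 37.3, 16.6, 28.6, 58.4, 50.2 and 49.8 CPM with Fcrl5 and at 14.6, 11.6, 16.5, 11.1, 16.3 and 14.1 CPM without (log2 fold change 1.62, SE 0.175, edgeR adjusted p = 1.86e-07, higher in 6 of 6 mice). Without the B1- or memory-like cluster the log2 fold changes were 1.32 for Cd9 (edgeR adjusted p = 0.0804) and 0.43 for Bhlhe41 (0.363), and neither passed. Bhlhe41 also lost its call with each cell thinned to 2000 UMIs (0.78, edgeR adjusted p = 0.714) and with at most 5% mitochondrial UMIs (0.40, adjusted p = 0.811). Apart from leaving out mice, Cd9 had a fitted value in only 9 of 12 alternatives.

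Fcer2a was at 444, 324, 398, 238, 258 and 228 CPM with Fcrl5 and at 482, 490, 491, 442, 429 and 465 CPM without, in the same order of mice. It was lower with Fcrl5 in 6 of 6 mice (log2 fold change -0.63, SE 0.134, edgeR adjusted p = 0.0385), most in the Cre-positive mice. Leaving out Cre-negative 2, Cre-positive 1 or Cre-positive 2 ended the call (edgeR adjusted p up to 0.116). Fcgr2b was at 87.9 to 110 CPM with Fcrl5 and 65.3 to 72.6 CPM without (log2 fold change 0.46, edgeR adjusted p = 9.03e-05), and Cr2 at 239 to 309 against 207 to 244 CPM (0.22, adjusted p = 0.0126), each higher in 6 of 6 mice. Leaving out Cre-negative 1 or Cre-negative 3 ended the call of Cr2 (edgeR adjusted p = 0.0580 and 0.0533), as did 5 other alternatives (0.0849 to 0.946). Fcgr2b lost its call after thinning (0.627), with at most 5% mitochondrial UMIs (0.0736) and within the largest cluster alone (0.492). Fcrl1, the genomic neighbour of Fcrl5, was higher with Fcrl5 in 5 of 6 mice and missed the threshold (log2 fold change 0.22, edgeR adjusted p = 0.0541), as did Fcrla (0.17, adjusted p = 0.0982). Zbtb32 was too low to be tested, with 42 UMIs in cells with Fcrl5 and 27 in the many more cells without, 7.995 ± 5.25 against 0.553 ± 0.526 CPM.

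**Figure D3:**
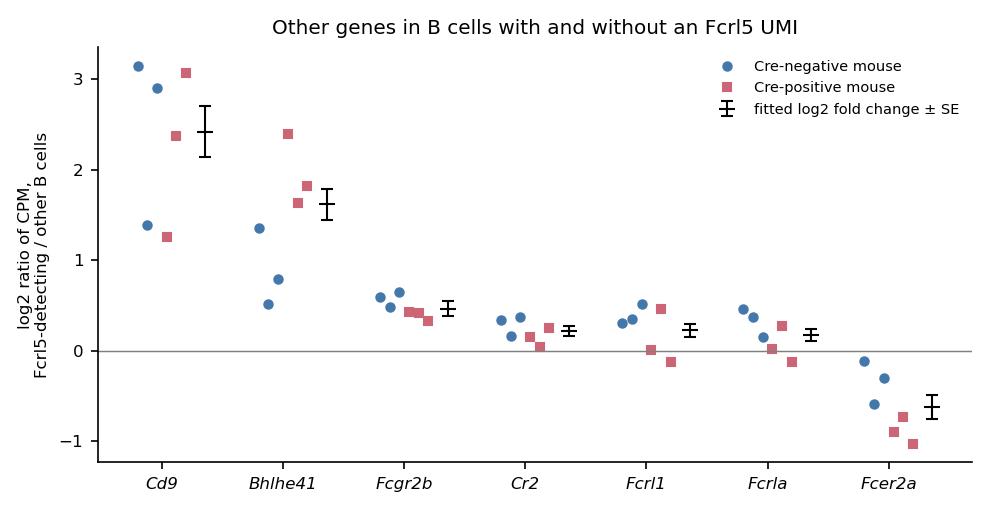
Log2 ratio of CPM in B cells with an Fcrl5 UMI over other B cells for the 7 genes tested, 1 point per mouse (circles Cre-negative, squares Cre-positive), with the fitted log2 fold change and its SE beside the points. Cd9 (2.42) and Bhlhe41 (1.62) lay above 0 in 6 of 6 mice, and Fcer2a (-0.63) lay below 0 in 6 of 6.

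Co-detection was also compared cell by cell at equal depth. With cells thinned to 2000 UMIs, Fcer2a was found in 43.6% ± 15.0 of cells with Fcrl5 and 55.7% ± 2.12 of the others (SD, n = 6 mice), lower in 5 of 6 mice. Cr2 was found in 40.2% against 32.4%, Fcgr2b in 18.3% against 12.8% and Fcrla in 40.8% against 36.4%, each higher in 5 of 6 mice. Fcrl1 was found in 24.9% against 24.3%, higher in 2 of 6 mice. Unthinned, Fcrl1 was found in 62.2% against 45.6%, so its apparent co-detection moved with depth. Cd9 was found in 3.66% against 0.499% of thinned cells, higher in 5 of 6 mice and on only 9 cells with Fcrl5, and in 7.82% against 1.25% unthinned. Bhlhe41 was found in 4.34% ± 4.15 against 2.48% ± 0.473 of thinned cells, higher in 4 of 6 mice and on only 12 cells with Fcrl5, and Zbtb32 in 2 cells with Fcrl5, higher in 1 of 6 mice. Within the B1- or memory-like cluster 27.3% of cells with Fcrl5 and 13.2% of those without held a Cd9 UMI, and outside it 3.19% and 1.08%, at unequal depth.

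The genes most like Fcrl5 were chosen by the size of their fold change in that fit, among genes that passed, moved one way in all 6 mice and reached a mean of 20 CPM. On the higher side were Atxn1 (log2 fold change 2.39), a transcriptional co-repressor, Apoe (2.11), a lipid carrier, Grn (2.10), which encodes progranulin, Cd36 (1.79), Lgals1 (1.79), Plac8 (1.74), Bhlhe41 (1.62), Ahr (1.59), the aryl hydrocarbon receptor, Ms4a6c (1.53) and St8sia6 (1.495), a sialyltransferase. Atxn1 was at 37.3, 49.8, 40.0, 52.6, 61.1 and 52.5 CPM with Fcrl5 and at 7.55 to 11.5 CPM without. That these values did not overlap is no further evidence, since the rule chose Atxn1 for a large difference in all 6 mice. On the lower side were Hbb-bs (-7.38), Jchain (-3.11), Rgs13 (-1.19), a regulator of germinal centre B cells, Cnn3 (-1.15), Cpne4 (-1.05), Atp1b1 (-1.02), a subunit of the sodium pump, B3gnt7 (-1.004), Tmem108 (-0.93), Lgals3 (-0.92) and Cd55 (-0.91). Hbb-bs was at 3439 CPM without Fcrl5 in Cre-negative 1 and at most 6.18 CPM in the other mice, so its value rests on that library. Jchain was at 1.78, 0, 0, 26.3, 126 and 8.08 CPM with Fcrl5, in the same order of mice. Without Fcrl5 it was at 37.1, 48.2, 33.9, 290, 1012 and 16.4 CPM. Its level was thus highest in Cre-positive 1 and 2, but it was lower with Fcrl5 in all 6 mice. In all, 200 genes higher and 238 lower met the rule before the limit of 10 on each side.

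By list, many follicular genes were lower and many marginal zone, B1 and memory genes higher in cells with Fcrl5. The B1- or memory-like cluster held 154 of the 687 cells with Fcrl5 and 152 of the 9742 without. It was named by genes that are also in the B1 and memory list, so that list gives no independent evidence. Without this cluster 447 genes were called in place of 867, and after thinning 71. No list was compared in those settings. Over all genes tested 4.91% were called higher and 4.24% lower, and the median was 0.01. Of 11 follicular genes 10 were lower, 8 of them called, and 0 were called higher (median -0.41), with called genes such as Ighd (-0.54), the heavy chain of IgD, Klf2 (-0.44), a factor of quiescence and egress, and Ccr7 (-0.41), a homing receptor. Of 9 marginal zone genes 8 were higher, 7 of them called (median 0.74), with called genes such as S1pr3 (1.86), a sphingosine phosphate receptor, Dtx1 (0.95), a Notch target, and Cd1d1 (0.74), a lipid-presenting molecule. Of 14 B1 and memory genes 11 were higher, 8 of them called, and 3 lower with none called (median 1.16), with called genes such as Cd80 (3.61), a costimulatory ligand, Itgb1 (1.41), an integrin, and Zbtb20 (1.05). Of 5 genes of Tbx21-type memory B cells 3 were called higher, Cd80, Cxcr3 (2.76), a chemokine receptor, and Zeb2 (1.08). Of 7 germinal centre genes 6 were lower, 5 of them called, among the latter S1pr2 (-1.98) and Bcl6 (-0.69).

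Few genes of the other lists were called. Of 19 genes of antigen receptor signalling 13 were higher and 6 lower, and Blnk (0.35) and Cd72 (0.32) were called higher and Cd79a (-0.23) lower. Of 4 other Fc receptor genes Fcgrt (-0.75), the neonatal Fc receptor, was called lower. Of 8 plasma cell genes Derl3 (0.97) was called higher and Jchain lower. Of 12 activation genes 8 were higher and 4 lower (median 0.14), and the called ones were Cd83 and Nr4a1, both lower (-0.36 each). Of 19 dissociation and RNA quality genes 12 were higher and 7 lower (median 0.02), and the called ones were Junb (-0.53) and Fos (-0.23). Markers of other cells summed to 70.0 to 91.0 CPM without and 53.4 to 106 CPM with Fcrl5 for T cells, and to 478 to 559 against 353 to 508 CPM for myeloid cells. Among them Lck (0.61) was called higher and Cst3 (-0.26) lower.

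The lower level of Fcer2a in cells with Fcrl5 was more marked in Cre-positive mice. A term for the difference of this split between genotypes, added after seeing the data, was called for 3 of 9470 genes (0.0317%), Rapgef4, Fcer2a and Ighd. The log2 ratio of Fcer2a in cells with Fcrl5 over other B cells was -0.12, -0.59 and -0.30 in Cre-negative against -0.89, -0.73 and -1.03 in Cre-positive mice. The groups did not overlap, and the difference was -0.57 (SE 0.115, edgeR adjusted p = 0.0390). Fcer2a was selected with earlier results of these libraries known, so this call is no independent evidence. Leaving out Cre-negative 1, Cre-negative 3, Cre-positive 1 or Cre-positive 3 ended this call (edgeR adjusted p from 0.299 to 0.763), as did thinning (0.978), keeping doublets (0.0731) and a gate of at least 2 UMIs (0.482). Without the B1- or memory-like cluster the difference of Fcer2a was -0.33 (edgeR adjusted p = 0.816), and with at most 5% mitochondrial UMIs it was -0.19 (0.969). Of the cells with Fcrl5, that cluster held 13.4% ± 3.06 in Cre-negative against 27.2% ± 1.47 in Cre-positive mice (SD, n = 3). The part of this unequal mix in the difference was not tested beyond the fit without the cluster.

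Across the 11 clusters of B cells Fcrl5 was highest in the B1- or memory-like cluster, at 97.1 CPM (52.3 to 129 over the 6 mice). The next were the myeloid-RNA-led cluster at 21.2 CPM (11.7 to 44.1), the nuclear-RNA-led cluster at 19.0 CPM (0 to 37.3) and a cluster led by S1pr1, a receptor for exit from the node, at 18.2 CPM (16.0 to 20.3). The lowest was a cluster led by Car2 at 4.1 CPM (1.0 to 6.7). Between the first and the next the mice did not overlap, and neighbours further down the order overlapped. In the interferon-high-like cluster 1 UMI of Fcrl5 came from Cre-negative and 21 from Cre-positive mice. In the B1- or memory-like cluster Bhlhe41 was at 97.0 ± 29.4, Cd9 at 39.7 ± 16.0 and Zbtb32 at 17.9 ± 13.9 CPM (SD, n = 6), and no other cluster reached these means. Fcer2a was at 144 ± 59.2 CPM there, 137 to 236 in Cre-negative against 76.9 to 113 in Cre-positive mice, and lower than that mean only in the germinal-centre-like cluster. Cr2, Fcgr2b, Fcrl1 and Fcrla had 190, 87.5, 151 and 312 CPM there, each inside the range of the other clusters' means.

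**Figure D4:**
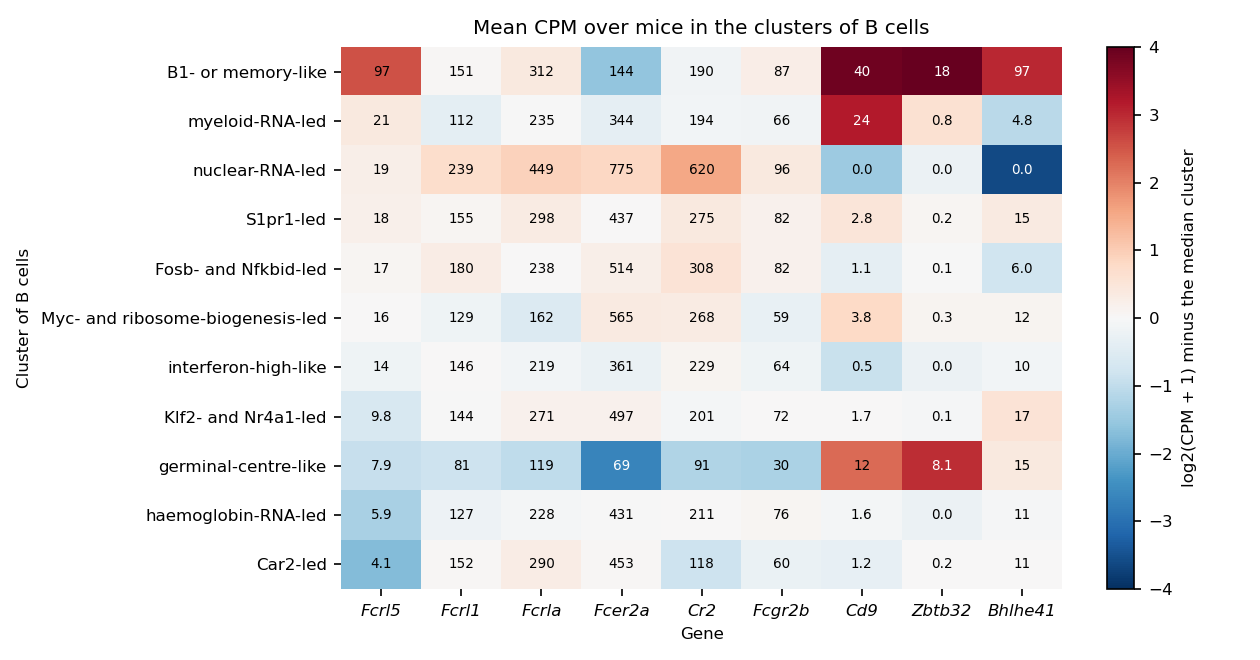
Mean CPM over mice of the 9 genes (columns) in the 11 clusters of B cells (rows, ordered by Fcrl5), coloured by log2(CPM + 1) minus the gene's median cluster. The B1- or memory-like cluster had the highest means of Fcrl5 (97.1 CPM), Cd9 (39.7), Zbtb32 (17.9) and Bhlhe41 (97.0).

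Over all 23 clusters of the node, Fcrl5 was found almost only in B cells, while several of the other genes were not limited to them. Fcrl5 was at 100.7 CPM in a B cell cluster of 351 cells led by Fcrl5, Bhlhe41 and Mzb1, at 13.9 and 13.4 CPM in 2 larger B cell clusters and at most 5.4 CPM elsewhere. The 50 leading genes of the cluster of 351 cells held the marginal zone markers Mzb1 and Plac8 and none of the B1 and memory markers. Fcrla was at 335 CPM in a plasmacytoid-dendritic-like cluster of 238 cells, with a UMI in 75.6% of them, and Fcgr2b at 39.6 CPM there, where Fcrl5 was at 1.7 CPM. Cd9 was at 152 to 207 CPM in 3 other dendritic clusters and at 8.7 CPM in the plasmacytoid-dendritic-like one. Fcrl1 was at 12.8 CPM in a Foxp3- and Ctla4-led regulatory-T-like cluster, with a UMI in 5.57% of 5113 cells, and at 0.5 to 1.0 CPM in 6 other T cell clusters. Cd9 was at 92.9 CPM in that cluster.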

How the data were processed

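Single-cell RNA libraries (10x) of 6 mice were used as deposited. The deposited values are raw UMI counts, and the submitters' processing notes name Cell Ranger 6.1.2 and mm10. No annotation release is given in the sources used here. The floxed gene is not reported here. Cells needed 500 UMIs, 300 genes and at most 10% mitochondrial UMIs, and doublets were removed with Scrublet in scanpy 1.11.5 at 0.8% per 1000 barcodes. B cells were clustered with leidenalg 0.10.2 (20 components, resolution 0.8) without the 9 genes. Counts summed per mouse were fitted with edgeR 4.0.16 (TMM, filterByExpr, robust quasi-likelihood F test, Benjamini-Hochberg at 0.05), with DESeq2 1.42.0 as an alternative, after tests on simulated data. CPM use TMM factors, except within clusters, where they are plain. Shares of mice were compared by exact two-sided permutation. P-values of the genotype contrast and of shares measure only the spread between these mice. With the mouse as a block, those of the Fcrl5 split and its genotype difference measure how the within-mouse difference varied over these mice. Named genes were the members, the 10 genes most like Fcrl5 on each side, up to 4 per list and called genes where 5 or fewer. The members and lists were chosen with earlier results of these data known. Alternatives covered normalization, filters, gates, depth, clustering and each mouse left out.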

Additional observations from a re-analysis of the deposited data

Results flagged for a closer look

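The contrast of B cells with and without an Fcrl5 UMI differed between genotypes for 3 genes, by the test of that difference over 9470 genes. The difference (Cre-positive minus Cre-negative, log2) was -0.82 for Rapgef4, -0.57 for Fcer2a and -0.46 for Ighd, each with an edgeR adjusted p of 0.0390. The term was added after seeing the data, and Fcer2a is one of the selected genes, so its call is no independent evidence. The log2 ratios of Rapgef4, an activator of the GTPase Rap1, were 0.18, -0.01 and -0.07 in Cre-negative and -0.71, -0.60 and -0.96 in Cre-positive mice. Those of Ighd, the heavy chain of IgD, were -0.25, -0.35 and -0.31 against -0.80, -0.59 and -0.89. In each gene the groups did not overlap. Rapgef4 and Ighd each lost the call on leaving out any mouse but Cre-positive 2 (edgeR adjusted p from 0.186 to 0.763). Both also lost it with at most 5% mitochondrial UMIs (-0.56 and -0.18, adjusted p = 0.953 and 0.968), with a gate of at least 2 UMIs (0.302 and 0.272), with doublets kept (0.0731 each), after thinning, and without the B1- or memory-like cluster (0.0521 and 0.678).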

How the results depend on the processing

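In the genotype contrast 0 genes were called, against 23 with no low-count filter, 4 with DESeq2, 2 with B cells taken as clusters, 1 with a gate of at least 2 UMIs and 0 to 5 on leaving out each mouse. The log2 fold change of Fcrl5 was 0.24 with at most 5% mitochondrial UMIs, 0.17 without the B1- or memory-like cluster and 0.93 within it, and the difference in its share of B cells was 0.603 points at 5%. The difference in that cluster's share was 0.18 points at 5% mitochondrial UMIs, 1.69 with the stricter gate and 1.21 at a clustering resolution of 0.5. Between B cells with and without Fcrl5, 867 genes were called, against 555 with DESeq2, 87 at 5% mitochondrial UMIs, 71 after thinning, 577 for cells with at least 2 Fcrl5 UMIs, 138 within the largest cluster, 447 without the B1- or memory-like cluster and 569 to 909 on leaving out each mouse. Fcrl1 turned to -0.045 there after thinning. The genotype difference of that split was called for 3 genes, against 7 with no filter, 0 with doublets kept, 5 with clusters, 1 with the stricter gate, 0 after thinning and 0 to 8 on leaving out each mouse, and Ighd turned to 0.039 after thinning. The cause was not tested, beyond the fewer cells and UMIs that thinning and the 5% limit leave. Replicate numbers did not pair the mice: same-numbered mice had correlations of -0.19, -0.26 and 0.11, and the replicate block gave 1 called gene (Derl3).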

Other observations

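Zbtb32, at 19.0 CPM in the Fcrl5-led B cell cluster of all cells, was at 10.1 CPM in the cycling cluster and at 4.1 CPM in the Foxp3- and Ctla4-led T cell cluster. Cd9 was at 58.6 to 68.7 CPM in the CD4-type T cell clusters.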
